A study of Mus musculus with 8 samples.

Results

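The genes of the proteasome were followed in fetal liver RNA of wild-type (WT) and Eklf knockout (KO) mouse embryos. They were chosen by name, as every probe set whose only gene symbol starts with Psma, Psmb, Psmc, Psmd, Psme, Psmf or Psmg and a digit. This rule found 103 probe sets of 49 symbols among 45101 probe sets, of which 34945 carry a single symbol and cover 18193 symbols. Another 1 probe set names both Psme2 and Psme2b and was left out, so Psme2 has no value here. The symbols Psmc3ip, a cofactor of meiotic recombination, and Psme3ip1, a partner of Psme3, match in name only. Without these 2 genes, 47 proteasome genes with 100 probe sets remained.

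The arrays compared 4 WT embryos with 4 Eklf-/- embryos, all at E14.5 of gestation. Eklf, listed as Klf1, encodes an erythroid zinc-finger factor that binds CACCC boxes in DNA. The knockout was made with E2A-Cre in B6 mice and is carried by all cells of the embryo, and RNA was taken from uncultured whole liver, which at this age holds erythroid cells, hepatocytes, macrophages and endothelium together. In such bulk RNA, fewer cells of a type and less RNA per cell cannot be told apart. A code in the sample titles is shared by the WT arrays and a different one by the KO arrays, so if it marks a preparation, that and the genotype cannot be told apart either.

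The proteasome is the protease that destroys proteins tagged with ubiquitin. Its 20S core is a barrel of alpha rings, which gate the entrance, around beta rings, whose subunits Psmb5, Psmb6 and Psmb7 cut the substrate, and in cells exposed to interferon or in leukocytes these can be replaced by the immunoproteasome subunits Psmb8, Psmb9 and Psmb10. The 19S particle caps the core: its base unfolds the substrate with the ATPases Psmc1 to Psmc6, and its lid removes the ubiquitin chain through Psmd14. Maturing red cells clear much of their protein through this system, and reticulocytes are a classical source of the enzyme.

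The promoter sequences of 2 constitutive subunits, Psmb5 and Psmb6, and of their immune replacements, Psmb8 and Psmb9, are shown because these subunits replace each other in the core, and because the binding motif of EKLF can be looked for in them. They are RefSeq sequences of the GRCm38.p6 build, taken from the 250 bases upstream of the start and without bases that lie inside a RefSeq gene. Psmb5 lies at chr14:54617996-54618245 on the minus strand, Psmb6 at chr11:70525107-70525323 on the plus strand, Psmb8 at chr17:34197945-34198194 on the plus strand and Psmb9 at chr17:34187331-34187555 on the minus strand. Each line reads 5′ to 3′ along the gene, with the matches of 5 motifs on either strand in capitals: CACCC and CCNCNCCC, the short and the extended EKLF site, which can overlap, TGACNNNGC, the element bound by Nfe2l1 and Nfe2l2, CCAAT, and the interferon response element, which is GAAA and GAAA with any 2 bases between.
Psmb5: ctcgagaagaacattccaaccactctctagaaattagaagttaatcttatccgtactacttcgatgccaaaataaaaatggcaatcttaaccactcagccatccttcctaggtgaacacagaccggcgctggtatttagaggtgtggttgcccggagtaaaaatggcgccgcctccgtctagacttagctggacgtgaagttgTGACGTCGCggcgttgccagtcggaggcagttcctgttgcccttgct
Psmb6: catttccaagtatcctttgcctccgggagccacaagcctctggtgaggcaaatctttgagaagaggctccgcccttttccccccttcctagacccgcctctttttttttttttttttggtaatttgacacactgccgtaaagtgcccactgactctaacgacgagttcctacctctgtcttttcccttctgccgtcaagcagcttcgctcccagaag
Psmb8: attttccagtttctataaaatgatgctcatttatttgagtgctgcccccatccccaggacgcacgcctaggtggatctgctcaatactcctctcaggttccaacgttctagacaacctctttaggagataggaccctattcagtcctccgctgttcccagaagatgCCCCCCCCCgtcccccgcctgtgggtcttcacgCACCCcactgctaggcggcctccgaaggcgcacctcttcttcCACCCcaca
Psmb9: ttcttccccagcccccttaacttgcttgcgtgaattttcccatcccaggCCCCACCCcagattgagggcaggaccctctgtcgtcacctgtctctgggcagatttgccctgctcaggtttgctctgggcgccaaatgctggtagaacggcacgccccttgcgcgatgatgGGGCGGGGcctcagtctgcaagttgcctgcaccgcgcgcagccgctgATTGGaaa

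The window of Psmb5 held a TGACNNNGC match and no CACCC, the printed window of Psmb6 held no match, and those of Psmb8 and Psmb9 held CACCC and CCNCNCCC. That of Psmb9 also held a CCAAT match, on the other strand. The window of the remaining immune subunit, Psmb10, held 0 matches of the 5 motifs and is not printed, and Psmb7 is not in the table used. In the full 250 bases, TGACNNNGC was found upstream of Psmb5, Psmb6, Psmc6, Psmd12 and Psmd9, the match of Psmb6 lying next to the start, in bases not printed. The RefSeq table held 41 such windows for 39 of the proteasome genes and 32851 windows in all. CACCC was present in 41.5% of the proteasome windows and in 52.0% of all windows. The extended site CCNCNCCC was present in 48.8% and 45.9%, TGACNNNGC in 12.2% and 10.2%, CCAAT in 34.1% and 33.8%, and the interferon response element in 7.32% and 2.98%, the last being 3 windows of the proteasome set. These were the windows of Psmb3, Psmd4 and Psmd9, and 0 of the 3 immunoproteasome windows held the element. Psmb9, Tap1, Psmb8 and Tap2 lie side by side in the RefSeq gene order, and the Psmb9 window overlaps Tap1.

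Values below are log2 of the deposited MAS5.0 signal, a linear array intensity scaled by the authors to the same trimmed mean in every array. A gene is represented by its brightest probe set, a probe set was tested if its WT or KO mean exceeded a signal of 100, and a gene was called if its p from limma, adjusted over all 23379 tested probe sets, was below 0.05. Klf1 itself was at 14.04, 13.87, 13.98 and 13.90 in WT and at 10.81, 10.56, 10.65 and 10.59 in KO replicates 2 to 5, so its signal was 9.81-fold lower in KO (limma, adjusted p = 5.9e-07). Whether its probes lie inside the deleted part of the gene was not examined, so the remaining KO signal and the fold are no measure of intact transcript. The erythroid marker list fell in all 7 tested genes with a median log2 difference of -1.73, and among them Tfrc fell by 1.73 and Ank1 fell by 3.02. Of all genes tested 21.0% fell, and 51.1% of those above a mean log2 signal of 12. With the arrays set equal on the hybridisation controls, 5 erythroid markers fell and their median was -0.99. The arrays of the genotypes also differed as a whole: WT arrays had median signals of 79.5 to 84.1 against 96.7 to 114 in KO and maximum signals of 54914 to 60410 against 32642 to 39185, and the 18S ribosomal RNA probe sets gave 11.83 to 12.03 against 7.67 to 8.32. The log2 signal of the 3′ less the 5′ control probe set of Actb, a sign of RNA quality, was 0.76 to 0.93 in WT arrays and 0.49 to 0.61 in KO arrays, with no overlap. The part of these whole-array differences in the results below was not tested. Each array was counted as a separate embryo, and the p-values measure the spread between these arrays.

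Most proteasome genes had a lower signal in KO fetal liver. Of the 46 genes tested, 23 fell, 2 rose (Psmd11 and Psmf1) and 21 were not called, and the median log2 difference was -0.33, or 79.4% of the WT signal, with 38 of 46 differences below 0. Over all 11275 genes tested, 21.0% fell, 25.5% rose and the median difference was 0.06. In 25 proteasome genes the KO arrays all lay below the WT arrays, which was so for 20.9% of all genes, and in 2 genes they all lay above, against 24.4% of all genes. The direction of the median holds on the deposited scale and after quantile, 75th percentile and poly-A control scaling, and it turned to 0.42 when the arrays were set equal on the hybridisation controls, with 0 genes lower and 25 higher (2.78% and 75.2% of all genes). The 47th gene, Psmb11, the thymus subunit, stayed below the signal limit in both groups, and the testis subunit Psma8 was dim and not called (6.95 ± 0.35 in WT, 7.17 ± 0.36 in KO, SD, n = 4).

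The count of 23 has to be read against the level of these genes, since bright genes as a whole had lower signals in KO. Above a mean log2 signal of 12, 51.1% of all 1052 genes fell, with a median of -0.33. Of the 25 proteasome genes in this range 16 fell and 1 rose, with a median of -0.35, close to that background. Between 10 and 12, 27.1% of all genes fell and 20.9% rose, with a median of -0.05, whereas 7 of the 17 proteasome genes fell and 1 rose, with a median of -0.32. Of the 4 proteasome genes below 10, 0 were called. These band values are descriptions and carry no test.

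**Figure D1:**
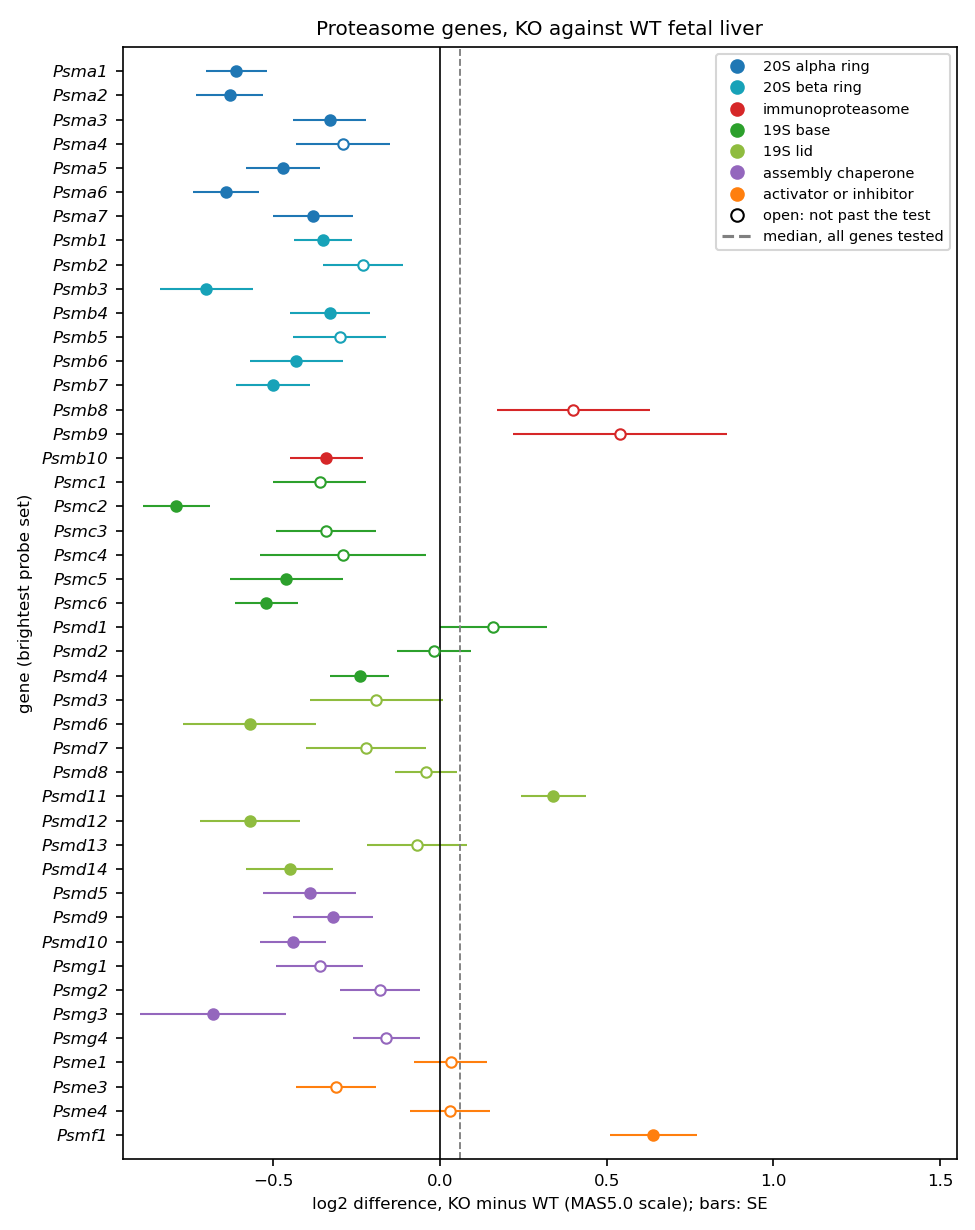
Log2 difference in signal, KO minus WT (horizontal axis), of the 45 tested proteasome genes that belong to a class, with the SE of limma as bars, grouped from the alpha ring at the top to activators and the inhibitor at the bottom. Filled points passed an adjusted p of 0.05. On this deposited scale the 14 genes of the 20S rings all lie below 0, between -0.70 and -0.23, while Psmb8, Psmb9, Psmd11 and Psmf1 lie at 0.34 to 0.64. Scaling to the hybridisation controls puts the median of all proteasome genes at 0.42.

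The alpha ring was the class with the most even decrease on the deposited scale. Its 7 subunits had differences from -0.64 to -0.29, with a median of -0.47, and 6 of them fell. Under hybridisation control scaling the median was 0.28. All alpha subunits lie above a mean log2 signal of 12, where 51.1% of all genes fell. Psma6, the alpha1 subunit, was at 13.93, 13.89, 13.97 and 13.95 in WT and at 13.40, 13.14, 13.39 and 13.23 in KO. It fell by 0.64 ± 0.099 (SE, limma, adjusted p = 0.00082), to 64% of WT, and the groups did not overlap. This probe set has the suffix x, which marks probes that can also bind other transcripts. A further bright probe set of Psma6 without it, 1416506_at, fell by 0.52 (limma, adjusted p = 0.0024). The dim 1435317_x_at was at -0.19 and not called (limma, adjusted p = 0.23). Psma2, the alpha2 subunit, was at 13.54, 13.43, 13.37 and 13.49 in WT and at 12.92, 12.75, 12.93 and 12.70 in KO, which is 64.5% of WT (limma, adjusted p = 0.00097). Psma1 (alpha6) likewise stood at 65.3% of WT, with WT arrays at 13.67 to 13.74 and KO arrays at 12.97 to 13.18. In the brightest probe sets of these 3 genes the difference between the group means was several times the SD inside either group. Of the dim probe sets of Psma1, 1458292_at rose by 0.44 and 1436770_x_at fell by 0.53 (limma, adjusted p = 0.011 and 0.015). The mean over its tested probe sets was -0.23 and was not called. Psma5 (alpha5), Psma7 (alpha4) and Psma3 (alpha7) fell by less, to 72.3%, 77% and 79.5% of WT. Further bright probe sets of Psma5 (1424681_a_at, -0.21) and Psma7 (1423568_at, -0.20) were not called (limma, adjusted p = 0.27 and 0.19). Among the brightest probe sets of the ring, that of Psma4, the alpha3 subunit, had the smallest difference, -0.29 (adjusted p from limma 0.11). KO replicate 4 at 12.80 lay inside the WT range of 12.75 to 12.92 and replicate 2 at 12.69 just below it, while replicates 3 and 5 were both at 12.29.

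The beta ring also had lower signals in KO, with 5 of 7 subunits falling and a median of -0.35, which hybridisation control scaling turned to 0.39. Most beta subunits lie above a mean log2 signal of 12, where 51.1% of all genes fell. Psmb3, a structural subunit without a catalytic site, had the lowest difference of the core: it was at 12.27, 12.25, 12.35 and 12.38 in WT and at 11.82, 11.32, 11.88 and 11.43 in KO. It fell by 0.70 ± 0.14 (SE, limma, adjusted p = 0.0037), to 61.4% of WT. KO replicates 3 and 5 were the low pair in this gene. The other tested probe set of Psmb3, 1460198_a_at, was at 11.48 in WT and 11.46 in KO, a difference of -0.012 that was not called, and the mean over both was -0.36. Among the catalytic subunits, Psmb7, with the trypsin-like site, was at 14.14 to 14.40 in WT and 13.60 to 13.92 in KO and fell to 70.5% of WT. Psmb6, with the caspase-like site, fell to 74.3% of WT (limma, adjusted p = 0.030). Psmb5, the chymotrypsin-like subunit and main target of proteasome inhibitors, was at 12.73 to 12.95 in WT and 12.23 to 12.71 in KO, a difference of -0.30 that missed the threshold (limma, adjusted p = 0.089) although the groups did not overlap. The structural subunits Psmb1 and Psmb4 fell to 78.3% and 79.3% of WT, and Psmb2 had a difference of -0.23 (limma, adjusted p = 0.13). For Psmb1 and Psmb4 all tested probe sets fell, 3 for Psmb1 (-0.90, -0.43 and -0.35) and 2 for Psmb4 (-0.39 and -0.33). Over both rings together, 11 of 14 genes fell, 0 rose and the median KO signal was 75.6% of WT. After quantile normalization 4 of the 14 fell, with a median of -0.11, and 4 fell under poly-A control scaling. In the beta ring the falls went from 5 to 1 after quantile normalization and the median to -0.08, and in the alpha ring from 6 to 3 and to -0.15.

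The immunoproteasome subunits did not move together. Psmb10, the replacement of Psmb7, was at 10.38 to 10.55 in WT and 9.85 to 10.23 in KO and fell to 78.8% of WT (limma, adjusted p = 0.031). Psmb8, the replacement of Psmb5, was at 8.83, 8.32, 8.51 and 8.19 in WT and at 8.59, 8.90, 8.50 and 9.48 in KO. Its difference of 0.40 ± 0.23 (SE, limma, adjusted p = 0.17) was not called and the groups overlapped. Psmb9, the replacement of Psmb6, was at 8.23, 8.31, 7.52 and 7.86 in WT and at 7.93, 8.33, 8.37 and 9.46 in KO, a difference of 0.54 ± 0.32 (SE, limma, adjusted p = 0.18). In both genes KO replicate 5 was the highest of all arrays by a wide margin.

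Each immune subunit was also compared with the constitutive subunit it replaces inside the same array, a difference that a common scaling of the array cannot change. The level of this difference depends on the probes, so only its change between genotypes is given. Psmb8 less Psmb5 was 0.71 ± 0.34 (SE) higher in KO, with 2 of 4 KO arrays above the highest WT array (exact two-sided permutation test with 70 assignments, p = 0.086). Psmb9 less Psmb6 was 0.97 ± 0.46 (SE) higher, with 3 of 4 KO arrays above the highest WT array (exact permutation p = 0.086). Psmb10 less Psmb7 was 0.16 ± 0.051 (SE) higher, with all 4 KO arrays above WT (exact permutation p = 0.029, the smallest that 4 against 4 arrays can give). Psmb10 thus had a smaller decrease than Psmb7 on the deposited scale, but after quantile normalization the difference was -0.35. The Psmb8 and Psmb9 pairs were then at 0.18 and 0.39. Psmb8 and Psmb9 lie below a mean log2 signal of 9, and Psmb5 and Psmb6 above 12. Over all tested probe sets the median difference was 0.40 below 9 and -0.35 above 12. The part of signal level in these pair changes was not tested. Adjusted over the 3 pairs compared, each permutation p was 0.086. Without KO replicate 2 the Psmb9 and Psmb10 pairs, at 1.26 and 0.17, passed 0.05 after adjustment, and without KO replicate 5 the Psmb8 and Psmb9 pairs were at 0.46 and 0.63.

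**Figure D2:**
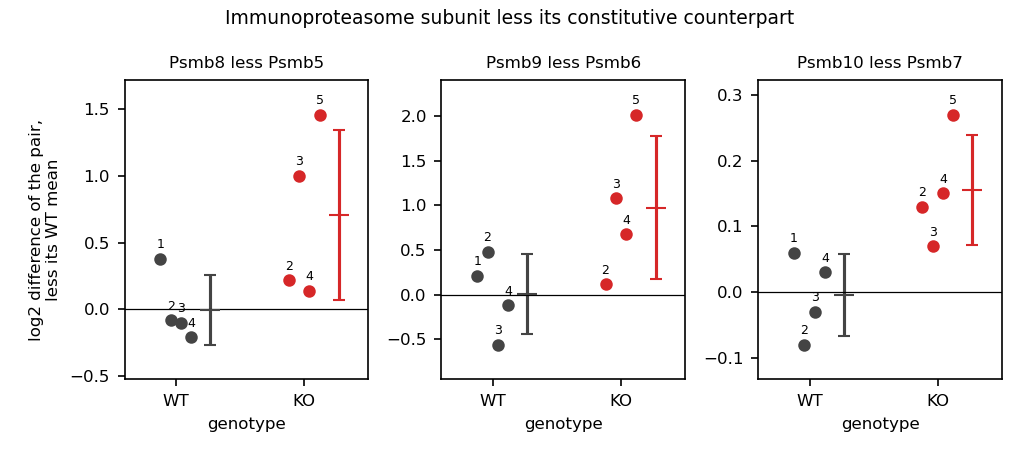
For each immune subunit and the constitutive subunit it replaces, the within-array log2 difference less its WT mean (vertical axis, a separate scale in each panel) is plotted for each array by genotype, with replicate numbers above the points and the mean and SD at the side. The KO means lie 0.71, 0.97 and 0.16 above the WT means, and KO replicate 5 is the highest point in all 3 panels. Under quantile normalization these changes were 0.18, 0.39 and -0.35.

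The antigen presentation genes, which act on the peptides the immunoproteasome makes, gave 2 rises among 7 tested and a median difference of 0.47, near the share of 25.5% that rose among all genes. The list had 1 rise and a median of 0.22 after quantile normalization, and 1 rise, 1 fall and a median of 0.20 at the 75th percentile. Tap1, a subunit of the peptide transporter and the neighbour of Psmb9, was at 7.26, 6.37, 7.03 and 7.05 in WT and at 7.44, 7.50, 7.89 and 8.35 in KO. It rose by 0.87 (limma, adjusted p = 0.018). Tapbp, which docks class I molecules to the transporter, rose by 0.71 (limma, adjusted p = 0.0036), from 10.12 to 10.38 in WT to 10.71 to 11.30 in KO. Both genes were highest in KO replicate 5. The differences of Tap2 (0.30), Erap1 (0.24), Irf1 (0.47), Cd74 (0.70) and B2m (-0.099) were not called, and Nlrc5 stayed below the signal limit. Irf1, an interferon-induced activator of these genes, had every KO array above WT, with 9.74 in KO replicate 5 as its highest value. Of the general leukocyte markers 3 of 4 tested rose (Ptprc, Laptm5 and Coro1a), and 1 rose at the 75th percentile. Ptprc was at 9.68 to 9.84 in WT and at 10.12, 10.76, 10.31 and 11.46 in KO replicates 2 to 5. The leukocyte list summed to a signal of 5110 to 5675 over WT and 6889 to 13401 over KO arrays, while Cd79a, Rag1 and Cd3e, which define B and T lymphocytes, were below the signal limit. The part of leukocyte content in the Psmb8 and Psmb9 values was not tested.

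The base of the 19S particle fell in 4 of 9 genes, with a median of -0.34 on the deposited scale and 0.41 under hybridisation control scaling. Among all genes, 27.1% fell at a mean log2 signal of 10 to 12 and 51.1% above 12, the levels at which the base genes lie. Psmc2, the Rpt1 ATPase, had the lowest difference of all proteasome genes. Its WT arrays were at 13.90, 13.99, 13.97 and 13.88 and its KO arrays at 13.31, 13.14, 13.16 and 12.97, so it fell by 0.79 ± 0.10 (SE, limma, adjusted p = 0.00036), to 57.8% of WT. A further bright probe set of Psmc2 fell by 0.61 (limma, adjusted p = 0.0050). The remaining tested probe set, 1443307_at, was dim and at least 1.05-fold higher in KO (limma, adjusted p = 0.0040), and the mean over the 3 turned the Psmc2 difference to 0.067. The brightest probe set has the suffix x, which marks probes that can also bind other transcripts, and the other bright one does not. The ATPases Psmc6 (Rpt4) and Psmc5 (Rpt6) fell to 69.5% and 72.7% of WT, and Psmd4, the ubiquitin receptor Rpn10, fell to 84.7% (limma, adjusted p = 0.049). A further bright probe set of Psmd4, 1418874_a_at, was at -0.14 and not called (limma, adjusted p = 0.41), and the dim 1451725_a_at was at least 1.56-fold lower. The ATPases Psmc1 (Rpt2), Psmc3 (Rpt5) and Psmc4 (Rpt3) had differences of -0.36, -0.34 and -0.29 that were not called (limma, adjusted p = 0.058, 0.092 and 0.34). The scaffold subunits Psmd1 (Rpn2) and Psmd2 (Rpn1), which hold the ATPase ring, had differences of 0.16 and -0.017. For Psmd1 the KO arrays were at 12.34, 11.90, 12.21 and 11.63 around a WT range of 11.82 to 11.89, so the KO spread covered the WT values on both sides.

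The lid had calls in both directions. Of its 8 genes 3 fell, 1 rose and 4 were not called, with a median of -0.21 on the deposited scale and 0.54 under hybridisation control scaling. Psmd14 (Rpn11), the enzyme that strips the ubiquitin chain, was at 13.11 to 13.42 in WT and 12.54 to 12.95 in KO and fell to 73.0% of WT (limma, adjusted p = 0.018). Psmd12 (Rpn5) was at 12.50, 12.58, 12.55 and 12.47 in WT and at 12.32, 11.88, 12 and 11.62 in KO, and it fell to 67.5% (limma, adjusted p = 0.011). Psmd6 (Rpn7) fell to 67.3%, but its KO arrays were split, at 12.78 and 12.65 in replicates 2 and 4 and at 11.93 and 12 in replicates 3 and 5, against 12.82 to 12.98 in WT. The other probe set of Psmd6, 1423696_a_at, was at -0.23 and not called (limma, adjusted p = 0.18). Psmd11 (Rpn6), a lid scaffold that clamps the cap to the core, went the other way. It was at 12.70, 12.62, 12.74 and 12.64 in WT and at 13.19, 13.00, 12.95 and 12.93 in KO and rose by 0.34 ± 0.098 (SE, limma, adjusted p = 0.019), to 126% of WT. This brightest probe set has the suffix s, for probes shared by several transcripts. The groups did not overlap, but Psmd11 lost its call under 75th percentile and poly-A control scaling, with no filter, with the mean over its probe sets, with the replicate block and without WT replicate 2 or 4. Further probe sets of Psmd11 rose by 1.03 (1456059_at, WT 9.89, KO 10.92) and 0.70 (1429370_a_at, WT 10.46, KO 11.16), a different one was at -0.016 (1440253_at), and 1456104_at was at least 2.25-fold lower, its KO mean being under the signal limit. Psmd3 (Rpn3), Psmd7 (Rpn8), Psmd8 (Rpn12) and Psmd13 (Rpn9) had differences from -0.22 to -0.042. The 19S particle as a whole thus had 7 falls and 1 rise among 17 genes, against 11 falls among 14 core genes. Over all genes 21.0% fell, and 51.1% of those above a mean log2 signal of 12. The core and cap medians were -0.40 and -0.29 on the deposited scale. After quantile normalization they were in the other order, at -0.11 and -0.16, with 4 falls in the core and 1 fall and 1 rise in the cap. The difference between core and cap was not tested.

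Of the 7 chaperones that help to assemble the particle 4 fell, with a median of -0.36 (0.39 under hybridisation control scaling). Most of these chaperones lie at a mean log2 signal of 10 to 12, where 27.1% of all genes fell. Psmd10 (gankyrin), a chaperone of the 19S base, was at 11.08, 11.14, 10.99 and 11.09 in WT and at 10.59, 10.72, 10.75 and 10.47 in KO and fell to 73.6% of WT (limma, adjusted p = 0.0063). The other chaperones of the base, Psmd5 and Psmd9, fell to 76.4% and 80.2% (limma, adjusted p = 0.048 and 0.049). Psmg3, one of the chaperones of the 20S core, fell to 62.6% (limma, adjusted p = 0.030), with KO arrays at 10.36, 9.51, 10.27 and 9.58 that overlapped the WT range of 10.34 to 10.82. Its core chaperone partners Psmg1, Psmg2 and Psmg4 had differences of -0.36, -0.18 and -0.16 that were not called. A slightly dimmer probe set of Psmg2, 1448212_at, fell by 0.32 (limma, adjusted p = 0.047).

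The activators and the inhibitor, which bind the ends of the core in place of the 19S cap, gave 0 falls and 1 rise among 4 genes. Their median was 0.03, and -0.24 at the 75th percentile. The share with a rise is near the 25.5% of all genes that rose, and 21.0% of all genes fell. Psme1, the alpha subunit of PA28, which is induced by interferon, was at 12.12 to 12.46 in WT and 12.24 to 12.42 in KO, a difference of 0.032. Psme3, the nuclear activator PA28 gamma, had every KO array below WT (11.43 to 11.51 in WT, 10.94 to 11.37 in KO), but its difference of -0.31 was not called (limma, adjusted p = 0.057). The probe sets of Psme4 (PA200) gave different answers. The brightest, with the suffix s for probes shared by several transcripts, differed by 0.030, and 4 others rose: by 0.34 (1452211_at), 0.92 (1426824_at) and 1.85 (1446464_at), and 1445147_at was at least 2.47-fold higher in KO. The 1426824_at probe set was at 10.70, 10.54, 10.59 and 10.62 in WT and at 11.55, 11.66, 11.55 and 11.36 in KO. Psmf1 (PI31), named for its inhibition of the core in the test tube, had the largest rise among the brightest probe sets. It was at 10.41, 10.44, 10.03 and 10.41 in WT and at 10.75, 11.16, 10.96 and 10.97 in KO, and rose by 0.64 ± 0.13 (SE, limma, adjusted p = 0.0042), to 156% of WT. A dimmer Psmf1 probe set rose by 0.39, and the remaining pair were at 0.13 and -0.18 and were not called.

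Taking every tested proteasome probe set and not the brightest alone, 33 of 83 fell and 13 rose, against 17.7% and 34.4% of all 23379 probe sets. The direction followed the level. Above 12, 19 of 32 fell and 2 rose (52.3% and 9.18% of all probe sets there). Between 9 and 12, 9 of 30 fell and 4 rose (21.3% and 27.2%). Below 9, 5 of 21 fell and 7 rose (10.4% and 42.9%, with a median of 0.40 over all 12853). Of 21 genes with several tested probe sets, Psma1, Psma3, Psmc2 and Psmd11 were called in both directions. In Psma3 the bright probe set fell to 79.5% of WT, while 1441707_at, at 6.46, 6.87, 6.67 and 6.04 in WT and 8.60, 9.07, 8.18 and 8.96 in KO, was at least 4.17-fold higher. In Psmd13 the brightest probe set differed by -0.069 and 1445729_at was at least 1.61-fold higher. Which transcripts the dim probe sets detect was not examined.

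**Figure D3:**
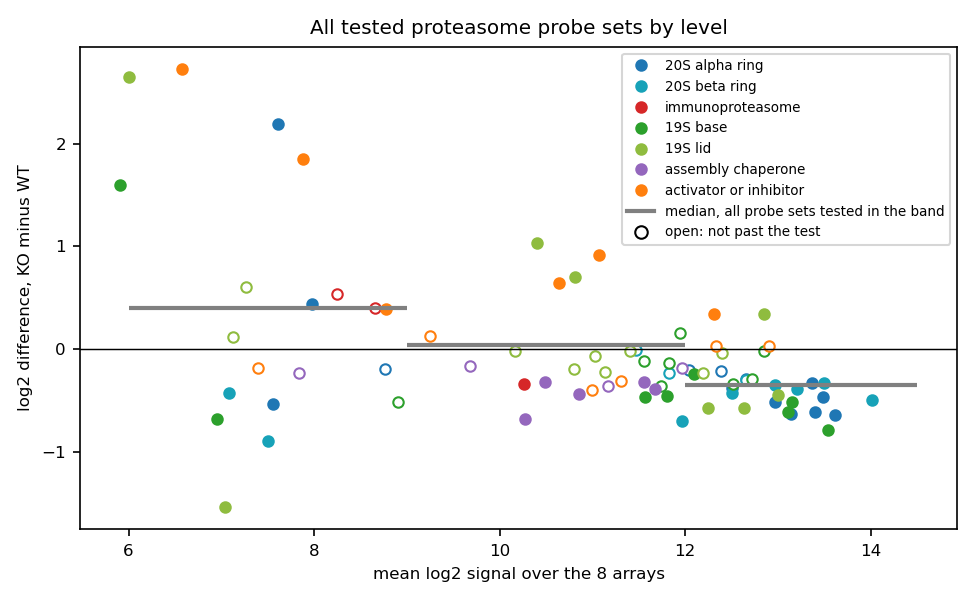
Log2 difference, KO minus WT (vertical axis), of tested proteasome probe sets against their mean log2 signal over the 8 arrays (horizontal axis), coloured by class, with filled points past an adjusted p of 0.05. The grey bars mark the median of all tested probe sets below 9 (0.40), from 9 to 12 (0.04) and above 12 (-0.35), and the proteasome points rise above 0 mainly at the dim end. Hybridisation control scaling would move all points up by 0.75.

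The KO arrays were not alike for these genes. In 34 of 46 proteasome genes the lowest pair of KO arrays was replicates 3 and 5, a pair that was lowest in 31.7% of all 11275 genes. The share among genes of similar level was not examined. Of the bright hepatocyte markers, Alb, Afp, Apoa1, Apob and Ttr had the same lowest pair and Fgb did not. The median proteasome gene lay 0.14 and 0.17 below its WT mean in KO replicates 2 and 4 (-0.14 and -0.17) and at -0.49 and -0.50 in replicates 3 and 5. The lid was at 0.034 and 0.04 in replicates 2 and 4 and at -0.50 and -0.39 in replicates 3 and 5, so its decrease rested on the latter arrays. The alpha ring was below WT in all of them, at -0.31, -0.55, -0.40 and -0.69. The poly-A control RNAs, which are added to the sample before labelling (24 probe sets, without the dim Trp control), were at 7.89 and 7.72 in KO replicates 2 and 4, at 8.3 and 8.2 in replicates 3 and 5, and at 7.85 to 8.01 in WT. The part of this difference in the proteasome values was not tested. Without KO replicate 3 the number of proteasome genes that fell was 12 and without KO replicate 5 it was 13, and it was 11 to 13 without any one of the WT arrays, so the count of 23 was lower by over 1.5 times when 1 of these 6 arrays was left out. The median stayed between -0.38 and -0.26.

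**Figure D4:**
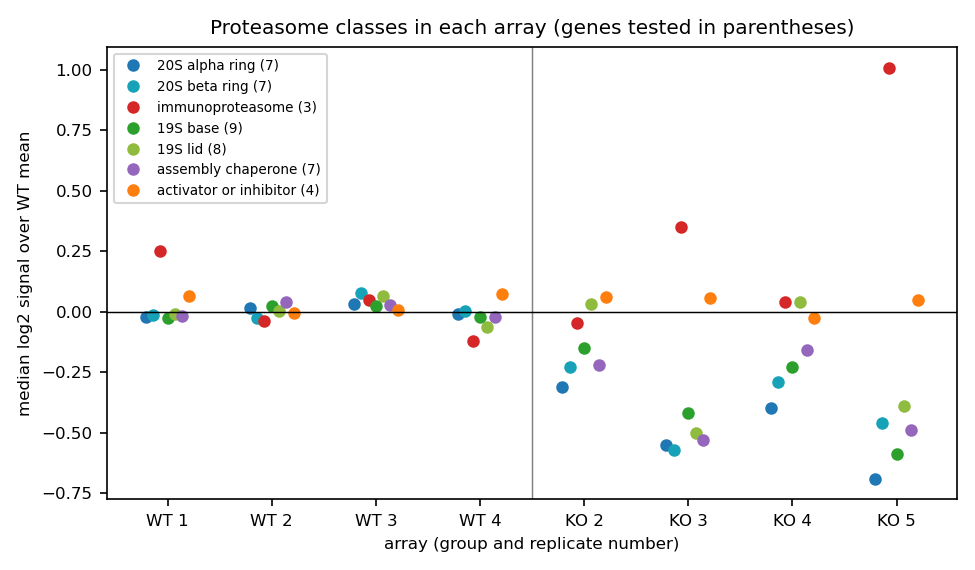
Median log2 signal of each proteasome class relative to the WT mean of its genes (vertical axis), for each of the 8 arrays (horizontal axis, WT replicates 1 to 4 left of the line, KO replicates 2 to 5 right). KO replicates 3 and 5 lie lowest for the ring, base, lid and chaperone classes, the activators stay near 0, and the immunoproteasome point of KO replicate 5 lies at 1.01. Values are on the deposited scale, and hybridisation control scaling turns the class medians of KO above WT.

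The scaling of the arrays sets the sign of the ring, base, lid and chaperone medians, while the immunoproteasome median was above 0 and above both ring medians under each of them. That class has 3 genes, and its median is the value of Psmb8 alone, which was not called on the deposited scale. Psmb8 lies below a mean log2 signal of 9, where the median over all tested probe sets was also 0.40. The hybridisation controls, RNAs added after labelling, were at 12.36 to 12.55 in WT and 11.54 to 11.85 in KO, and making them equal, each array by its own controls, raised the KO minus WT differences by 0.75, which gave medians of 0.42 for the proteasome and 0.81 for all genes. Quantile normalization gave -0.16 against -0.088 for all genes, with 10 falls and 2 rises (25.8% and 16.5% of all genes). The 75th percentile gave -0.60 against -0.21, with 34 falls and 1 rise (37.0% and 12.9%), and poly-A scaling gave -0.26 against 0.14, with 6 falls and 1 rise (11.6% and 25.6%). Scalings that add 1 constant per array leave the gap between the proteasome and all genes nearly as it was, so only quantile normalization bears on it, and there the medians of -0.16 and -0.088 lay close together. Of the 23 genes that fell, Psma2, Psma6 and Psmb3 kept their call in every alternative run except hybridisation control scaling. The rise of Psmf1 was called under each of the scalings but not with the mean over its probe sets or with the replicate block.

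**Figure D5:**
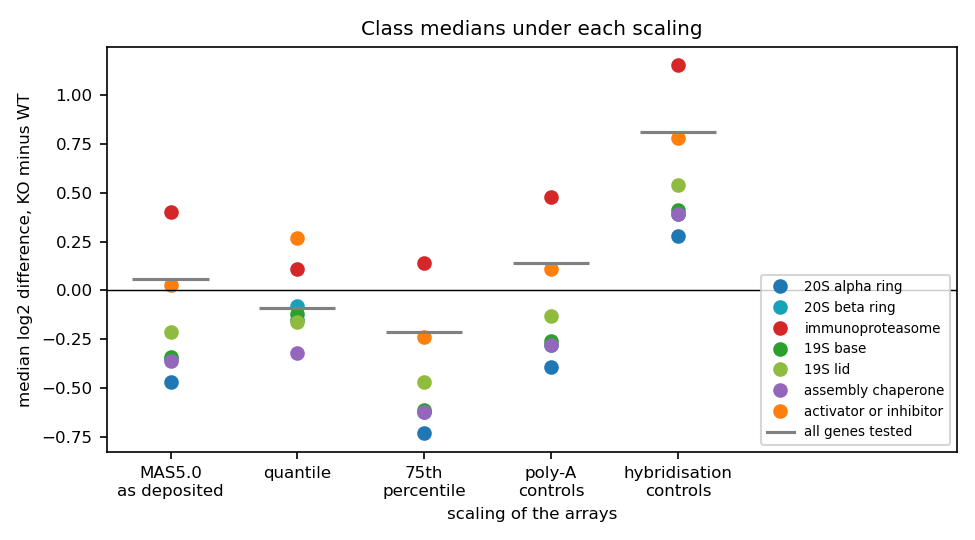
Median log2 difference, KO minus WT (vertical axis), of each proteasome class under each scaling of the arrays (horizontal axis), with the median of all tested genes as a grey bar. The alpha ring is at -0.47, -0.15, -0.73, -0.39 and 0.28 from left to right, and it lies below the grey bar in all 5, while the immunoproteasome median lies above the bar in all 5. The immunoproteasome median is the value of Psmb8 alone.

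Partners of the proteasome, taken as a list of 27 genes of which 18 were tested, were called in both directions, with 6 falls, 4 rises and a median of -0.06, which was 0.04 after quantile normalization and 0.68 under hybridisation control scaling. These counts are near the shares over all genes (21.0% and 25.5%), and they were 0 falls and 15 rises under hybridisation control scaling and 8 falls and 1 rise at the 75th percentile. The steepest falls were those of Uchl5 (-0.74), a deubiquitinase bound to the 19S cap, Ufd1 (-0.46), a cofactor of the segregase Vcp, and Ube3c (-0.41), a ubiquitin ligase that works on the particle. Uchl5 was at 12.63, 12.70, 12.64 and 12.64 in WT and at 11.96, 11.93, 12.11 and 11.62 in KO, or 59.7% of WT (limma, adjusted p = 0.0010). The rises were led by Ecpas (1.00), which tethers the cap to the core, Ngly1 (0.45), the enzyme that activates Nfe2l1, and Ubqln1 (0.31), a shuttle for ubiquitinated proteins. Ecpas was at 9.13, 9.15, 9.24 and 8.88 in WT and at 9.94, 10.15, 10.04 and 10.28 in KO, or 200% of WT (limma, adjusted p = 0.00023). Nfe2l1, the transcription factor that raises proteasome genes when the enzyme is short, had a difference of 0.33 that was not called (limma, adjusted p = 0.16), and that of its relative Nfe2l2 was 0.034. Pomp, the chaperone that matures the core, fell by 0.37 and the lid subunit Sem1 by 0.26.

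The gene matched in name only, Psmc3ip, fell to 49.2% of WT, with WT arrays at 10.21 to 10.40 and KO arrays at 9.73, 9.08, 9.50 and 8.91 (limma, adjusted p = 0.0017), a larger decrease than that of any proteasome gene. Psme3ip1 had a difference of 0.12 and was not called. Of the other cell types that the liver can hold, 4 of 6 hepatocyte markers fell and 1 rose (summed signal 177601 to 202332 in WT, 116552 to 145187 in KO), 1 of 8 macrophage markers fell (14081 to 16936 and 9499 to 17351), 4 of 6 endothelial markers rose (4693 to 5192 and 5844 to 7117) and 2 of 7 granulocyte markers rose (42901 to 49700 and 44538 to 108382). Over all genes 21.0% fell and 25.5% rose, so the granulocyte count is near the background. The hepatocyte markers all lie above a mean log2 signal of 12, where 51.1% of all genes fell. After quantile normalization 0 hepatocyte markers fell and their median was -0.04, and at the 75th percentile 2 endothelial markers rose and 1 fell. Hybridisation control scaling turned the hepatocyte median from -0.61 to 0.14 and the macrophage median from -0.34 to 0.41. The part of these cell types in the proteasome values was not tested.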

How the data were processed

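RNA of 4 WT and 4 Eklf-/- fetal livers was measured on Affymetrix mouse arrays. The deposited values are MAS5.0 signals, a linear intensity per probe set that the authors scaled to a trimmed mean of 500.003 to 500.004 per array (2% trimmed at each end). MAS5, of a version not given in the sources used, and R 3.0.2 are listed by the submitters' processing notes. The methods name the A array of the series, whereas 45101 probe sets are listed. Intensities carry no counts, so the number of arrays limits the precision. Signals were log2-transformed with no pseudocount, and 23379 probe sets with a group mean above 100 were tested with limma 3.58.1 in R 4.3.3 (lmFit, eBayes, genotype only, two-sided, Benjamini-Hochberg). Within-array pairs were tested by exact permutation over all 70 assignments, computed in Python 3.11.15 with numpy 2.4.6. On simulated data with the arrays' own spread, limma recovered 11 of 100 probe sets changed by 0.5 and 66 of 100 changed by 1 on the log2 scale, with 6 false calls among 83. All other probe sets of the 23379 were unchanged there, whereas 17.7% fell and 34.4% rose in the real data. The adjusted threshold is looser with so many changes, so these shares do not measure the power of the real comparison. Groups came from the sample labels. All members were named by class, Klf1 as the target, the 3 largest called rises and falls of the partner list, and every measured antigen presentation gene; values of other marker and partner genes were added after they were seen. A fold given as "at least" sets the brighter mean against the signal limit of 100 where the dimmer mean is below it. Members and lists were chosen with earlier results of these data known. Alternatives were other scalings, a pseudocount, other filters, the mean over probe sets, the methods' t-test, the replicate block and leaving out each array.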

Additional observations from a re-analysis of the deposited data

Results flagged for a closer look

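In 1 of the 98 groups of 4 arrays examined, an array stood far from the other arrays of its group. Psmf1 was at 10.03 in WT replicate 3, the lowest WT value, against 10.41 to 10.44 in the other WT arrays, a gap of 0.91 of the range of the group. Chance flags about 1 in 20 such groups.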

How the results depend on the processing

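The main counts were 23 genes lower and 2 higher with a median of -0.33. The count of falls stayed within 1.5 times of 23 with a pseudocount of 64 (26), a signal minimum of 200 (26), the mean over probe sets (20, 3 rises, median -0.30) and the 75th percentile (34, 1 rise, median -0.60). It was 10 after quantile normalization (median -0.16), 6 under poly-A scaling (1 rise, median -0.26), 13 by the methods' t-test after Benjamini-Hochberg (21 falls and 2 rises at their unadjusted threshold), and 11 with 1 rise without a filter. That t-test was run here with unequal variances and with the signal limit of 100, neither of which the methods state. Poly-A scaling without the Trp probe sets, chosen after seeing the data, gave 8 falls, 1 rise and a median of -0.42. Hybridisation control scaling gave 0 falls, 25 rises and a median of 0.42. Leaving out 1 array gave 11 to 25 falls, 1 to 2 rises and medians of -0.38 to -0.26. The causes were not tested.

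The replicate block, fitted on the 3 replicate numbers that both groups have, gave 5 falls, 0 rises and a median of -0.29, and pair changes of 0.58, 0.69 and 0.14, with an exact permutation p that cannot go below 0.25. The numbers do not pair the arrays, since same-numbered arrays deviated together with correlations of -0.00084, -0.082 and -0.027. Psmb8 less Psmb5 was 0.46 to 0.89, Psmb9 less Psmb6 0.63 to 1.26 and Psmb10 less Psmb7 0.12 to 0.19 when 1 array was left out. Without KO replicate 2 the last pair and Psmb9 less Psmb6 passed the adjusted threshold. After quantile normalization Psmb8 less Psmb5 was 0.18, Psmb9 less Psmb6 0.39 and Psmb10 less Psmb7 -0.35.

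Single genes changed sign as follows. Under hybridisation control scaling the log2 differences became Psma1 0.13, Psma2 0.12, Psma3 0.42, Psma4 0.46, Psma5 0.28, Psma6 0.10, Psma7 0.37, Psmb1 0.39, Psmb2 0.52, Psmb3 0.046, Psmb4 0.41, Psmb5 0.44, Psmb6 0.32, Psmb7 0.24, Psmb10 0.41, Psmc1 0.39, Psmc3 0.41, Psmc4 0.45, Psmc5 0.29, Psmc6 0.22, Psmd2 0.73, Psmd4 0.51, Psmd3 0.56, Psmd6 0.18, Psmd7 0.53, Psmd8 0.71, Psmd12 0.18, Psmd13 0.68, Psmd14 0.29, Psmd5 0.36, Psmd9 0.43, Psmd10 0.31, Psmg1 0.39, Psmg2 0.57, Psmg3 0.071, Psmg4 0.59 and Psme3 0.44. Under 75th percentile scaling they were Psma8 -0.048, Psmd1 -0.11, Psme1 -0.23, Psme4 -0.24 and Psme3ip1 -0.15. Under poly-A control scaling they were Psmd2 0.059, Psmd8 0.034 and Psmd13 0.0071. Without the Trp controls they were Psme1 -0.054 and Psme4 -0.057. After quantile normalization they were Psma3 0.0044, Psma8 -0.18, Psmb4 0.0081, Psmd2 0.25 and Psmd8 0.17. With the mean over probe sets they were Psma3 0.93, Psmc2 0.067, Psmd7 0.20 and Psmd13 0.67. With the replicate block they were Psmd2 0.0034 and Psme4 -0.025. Leaving out 1 array gave Psmd2 -0.07 to 0.052, Psmd3 -0.28 to 0.0013, Psmd13 -0.15 to 0.058, Psme1 -0.034 to 0.079, Psme4 -0.036 to 0.10. Depth is not known for arrays. The precision is that of 4 arrays a group, so a proteasome gene that was not called may still differ.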
